A study of Danio rerio with 17 samples.

Results

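The acute response of the adult zebrafish liver to cryoinjury was taken from 9 of the 17 libraries of a bulk RNA-seq series: the 4 libraries whose columns end in 1dpci (1 day post-cryoinjury) and the 5 whose columns end in SHAM. All fish were adults, 4 to 9 months old, of the line Tg(fabp10a:NLS-mCherry), in which a hepatocyte promoter drives a red fluorescent protein in the nucleus, so both groups carried the transgene. For the 1 dpci group a probe cooled in liquid nitrogen was placed on the exposed ventral lobe, and tissue was collected 1 day later. The study sequenced the injured region of that lobe and also contralateral lobes. The labels here give only liver, group and replicate, so the region held by each library, sham included, is not stated. Libraries of cryoinjured fish are called injured libraries below. Sham-operated fish had the same incision, with a thawed probe placed on the liver. Livers of several fish were pooled in each tube. The study's methods and a figure legend give different numbers of livers and replicates, and the legend calls the replicates technical. Neither states whether tubes of a group came from separate operations. The p-values therefore measure only the spread between tubes within the groups of all 17 libraries, which may be technical.

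Cold kills the tissue under the probe and leaves living hepatocytes around it. A damaged liver is known to raise acute phase proteins, which it secretes into the blood under Il6, Stat3 and NF-kB signalling, and to switch on the integrated stress response, in which the transcription factor Atf4 raises amino acid transport, amino acid synthesis and the charging of tRNAs. Hepatocytes otherwise carry the body's load of amino acid breakdown, glucose release, drug and bile acid chemistry and lipoprotein secretion. The comparison asked which of these gene families rose and which fell at 1 dpci.

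The 1 dpci libraries held 4743533 to 5466939 counts and the sham libraries 4804488 to 6800961, in 8513 entries of which 8412 were tested. Mitochondrial entries held 30.25 to 40.5% of the counts at 1 dpci, against 43.84 to 49.48% in sham livers, most of it in a single unnamed entry. TMM factors, which centre the fold changes of most genes near 0, were 1.199 to 1.687 at 1 dpci and 0.6084 to 1.027 in sham livers. With them 793 genes (9.43%) were higher at 1 dpci and 1216 (14.5%) lower by the quasi-likelihood test of edgeR, at a Benjamini-Hochberg adjusted p of at most 0.05, 39.5% against 60.5% of the calls. Scaled by column totals alone, 3154 genes (37.5%) were higher and 473 (5.62%) lower, 87% against 13% of the calls, and the all-gene median of the log2 fold change was 0.84 in place of -0.02. All 793 higher calls were also made with column totals, but only 472 of the 1216 lower ones (5.61% of all genes tested). Expression below is in CPM, a gene's counts divided by the scaled size of its library, with TMM scaling unless stated otherwise, and counts of lower genes are given under both scalings.

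**Figure D1:**
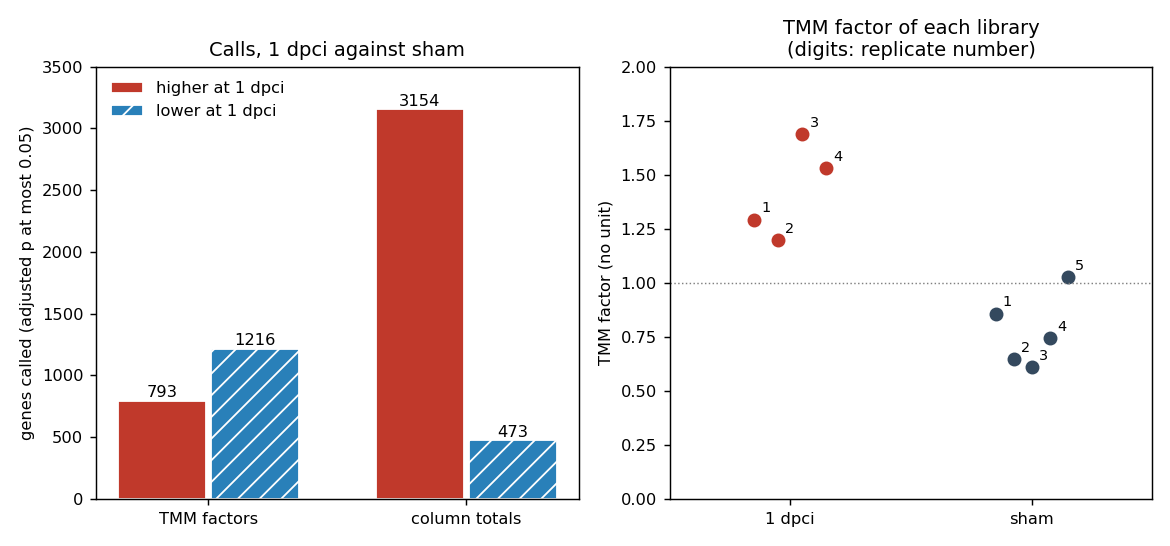
Left, genes called higher or lower at 1 dpci with TMM factors and with column totals; right, the TMM factor of each library, with 1 dpci left of sham. The split of the calls turned over between the scalings (793 higher and 1216 lower against 3154 higher and 473 lower), and every 1 dpci factor (1.199 to 1.687) lay above every sham factor (0.6084 to 1.027).

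The calls were broad in size. The median fold of the higher genes was 2.77, and that of the lower genes, sham over 1 dpci, was 3.97. More than 8-fold changes (log2 fold change beyond 3) numbered 116 among the higher genes and 296 among the lower. With the study's added threshold of a log2 fold change of 1.5, 377 genes (4.48%) were higher and 826 (9.82%) lower. In 920 genes (10.9%) every 1 dpci library lay above every sham library, and in 1028 (12.2%) every one lay below. Sham replicate 5 correlated across genes at 0.84 to 0.888 with the other sham libraries. These correlated at 0.8759 to 0.9175 with each other, so the ranges overlapped. Their column codes in the labels are consecutive numbers, while the code of sham replicate 5 lies far from theirs. Without sham replicate 5, 839 genes (9.98%) were higher and 1222 (14.5%) lower. The 1 dpci libraries fell into 2 closer pairs, replicates 1 and 2 and replicates 3 and 4, with correlations across genes of 0.977 and 0.978 within the pairs and 0.907 to 0.920 between them. Their column codes are consecutive within each pair and not between the pairs. Summing each pair to 1 library left 267 higher and 333 lower genes. Of 145 genes described below, 40 then lost their call. Without 1 dpci replicate 1 the counts were 474 and 727, and without replicate 2 they were 511 and 776.

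Enzymes that load amino acids onto tRNAs rose together. Of 19 cytosolic aminoacyl-tRNA synthetases 11 (57.9%) were higher and 0 lower, beside 9.43% of all genes, and all 19 had a positive log2 fold change. Their median log2 fold change lay 1.14 above that of all genes, and 4 stayed higher with the pairs of 1 dpci libraries summed. The lysine enzyme kars had 675, 971, 686 and 622 CPM at 1 dpci, against 120.0, 84.8, 133, 93.9 and 144 CPM in sham livers (log2 fold change 2.68 ± 0.29 SE, adjusted p = 5.89e-05). The asparagine enzyme nars had 307, 368, 299.8 and 325 CPM at 1 dpci, against 58.5, 39.3, 53.1, 29.2 and 104 CPM in sham livers (log2 fold change 2.52 ± 0.42 SE, adjusted p = 0.000673), and eprs, the enzyme for glutamate and proline, was 5.08-fold higher. All 4 injured libraries lay above all 5 sham libraries for these enzymes, a condition of the rule that named most genes. Together the synthetases took 0.231, 0.276, 0.332 and 0.297% of counts at 1 dpci, against 0.0598, 0.0312, 0.0374, 0.0369 and 0.0753% in sham livers, with no overlap. The nuclear exporter of tRNA, xpot, was 3.55-fold higher (adjusted p = 0.00328).

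Of 32 Atf4 targets and serine synthesis genes 12 (37.5%, beside 9.43% of all genes) were higher and 2 lower (0 under both scalings). Their median lay 0.88 above that of all genes. The lower ones were cth and shmt2, and asns, ddit3, ddit4, atf5a and psph were among those not called. Of the serine synthesis enzymes psat1 and psph, only psat1 was thus higher. The phosphoserine aminotransferase psat1 had 34.7, 41.3, 65.9 and 61 CPM at 1 dpci, against 0.369, 0.455, 1.75, 0.456 and 8.72 CPM in sham livers (log2 fold change 4.40 ± 0.80 SE, adjusted p = 0.00118). Sham replicate 5 was the highest sham library, and the groups did not overlap. The stress-induced factor atf3 had 137, 156, 98.5 and 138 CPM at 1 dpci, against 25.3, 1.14, 4.66, 3.88 and 17.6 CPM in sham livers (log2 fold change 3.64 ± 0.67 SE, adjusted p = 0.00138). The glutathione-degrading enzyme chac1, which the integrated stress response induces, had 588, 582, 311 and 294 CPM at 1 dpci, against 55.1, 38.9, 76.4, 83.2 and 82.3 CPM in sham livers (log2 fold change 2.72 ± 0.47 SE, adjusted p = 0.000865). Amino acid transport was represented by slc3a2b, the heavy chain of several transporters, which was 12.1-fold higher, and by the cationic amino acid transporter slc7a3a, which was 8.48-fold higher (adjusted p = 0.000621 and 0.00274). With the 1 dpci pairs summed, 10 members stayed higher and 0 lower.

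Genes that build ribosomes and genes of the ribosome itself went different ways. Of 89 ribosome biogenesis genes, 24 (27%) were higher and 2 lower (0 under both scalings), and 79 had a positive fold change, with a median 0.69 above that of all genes. Examples were nifk, a nucleolar protein, with 23.1, 19.3, 28.7 and 28.6 CPM at 1 dpci, against 8.85, 7.73, 6.7, 2.96 and 7.1 CPM in sham livers (log2 fold change 1.90 ± 0.47 SE, adjusted p = 0.00934), and dkc1, the pseudouridine synthase dyskerin, which was 3.18-fold higher (adjusted p = 0.015). The count rested on single libraries: 12 genes were higher without 1 dpci replicate 1, 13 without replicate 2, 15 without replicate 4 or sham replicate 4, and 1 with the pairs summed. By contrast, of 70 cytosolic ribosomal proteins 0 were higher and 40 lower with TMM, while with column totals 4 were higher and 0 lower, so the direction of this family depended on the scaling. The small subunit protein rps20 had 720.4, 911, 1001 and 841 CPM at 1 dpci, against 2048, 3505, 2789, 2392 and 1023 CPM in sham livers, a log2 fold change of -1.44 ± 0.37 (SE) with TMM and -0.45 with column totals. The same held for rpl6 (-1.31 and -0.39), a protein of the large subunit. As a share of all counts the ribosomal proteins took 6.74, 6.87, 9.49 and 7.73% of counts at 1 dpci, against 7.08, 8.01, 6.94, 7.17 and 6.75% in sham livers, and the groups overlapped. Their 40 lower calls became 17 to 26 without any 1 of the 1 dpci libraries or of sham replicates 2 and 3, and 0 with the pairs summed.

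**Figure D2:**
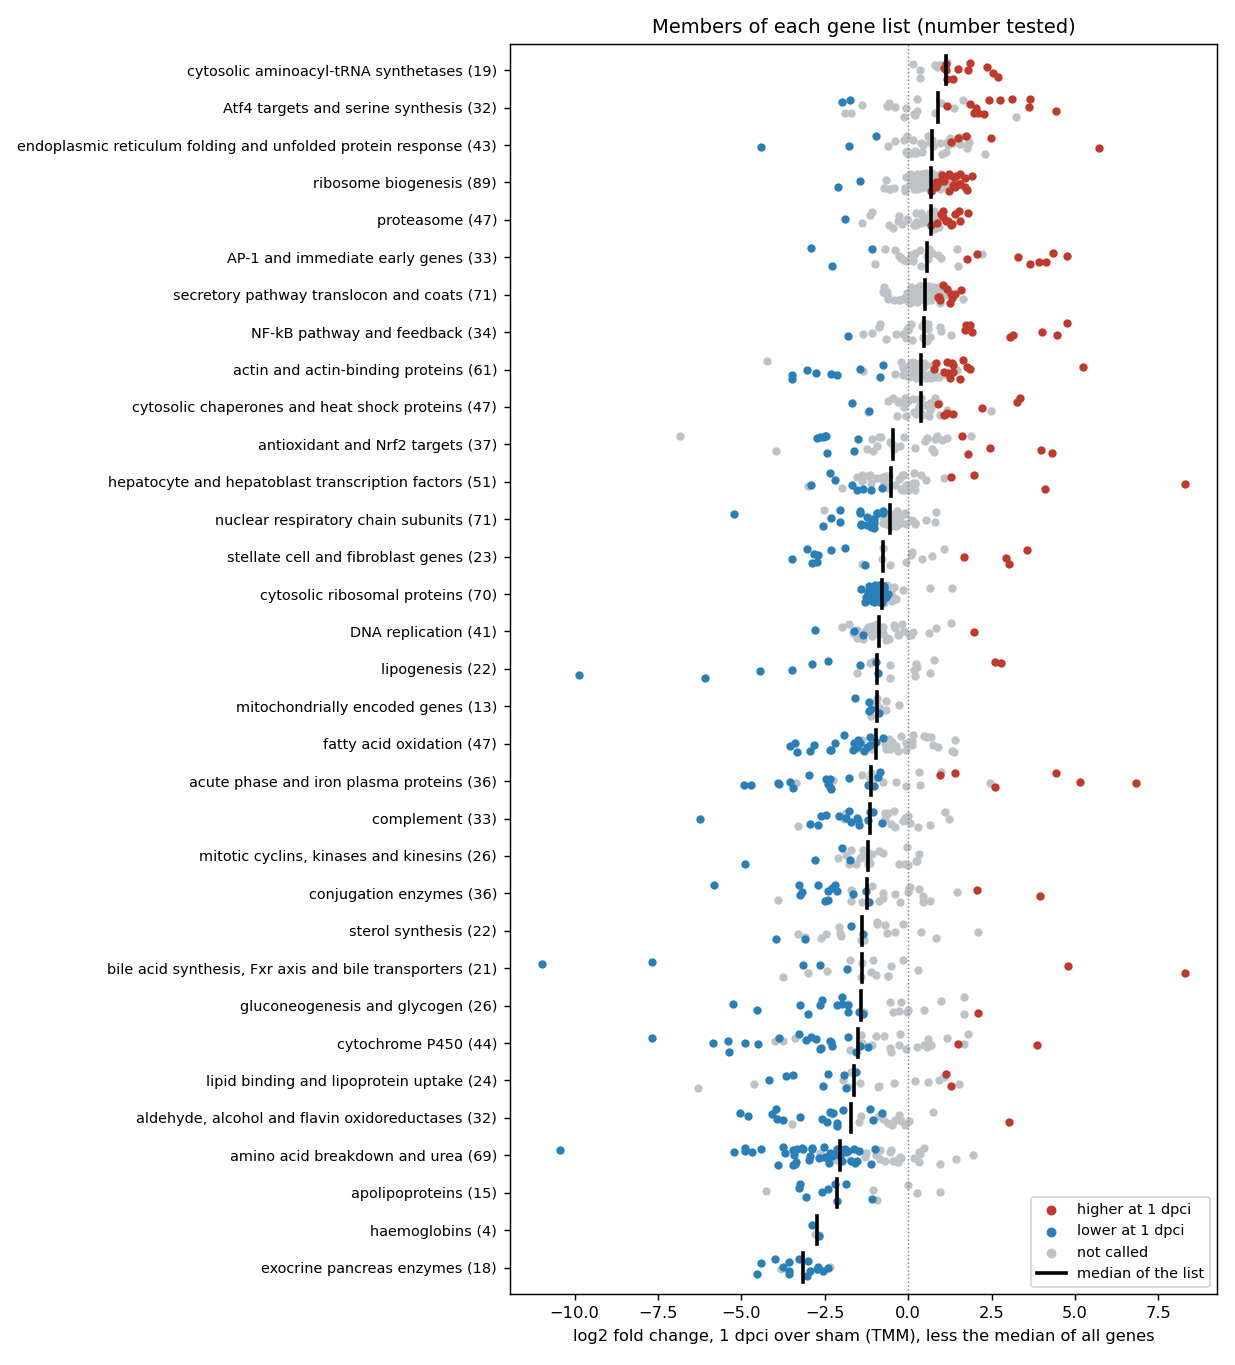
Log2 fold change of each tested member of 33 gene lists, 1 dpci over sham with TMM factors, less the median of all genes; red and blue points passed the test, grey points did not, and the black bar is the list's median. The aminoacyl-tRNA synthetases had the highest median of the lists drawn (1.14) and the exocrine pancreas enzymes the lowest (-3.14).

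Protein folding and secretion genes rose in part. In the endoplasmic reticulum, 5 of 43 folding and unfolded protein response genes (11.6%, near the 9.43% of all genes) were higher and 3 lower (1 under both scalings), although 33 had a positive fold change. Without sham replicate 2, 3 were higher. The disulfide isomerase pdia6 had 294, 369, 219.9 and 245 CPM at 1 dpci, against 43.5, 27.7, 30, 41.5 and 112 CPM in sham livers (log2 fold change 2.47 ± 0.58 SE, adjusted p = 0.00648). The chaperone hspa5 (BiP), the usual marker of stress in this compartment, had 2646, 2762, 1976 and 2373 CPM at 1 dpci, against 2150.3, 300.0, 626, 139.6 and 432 CPM in sham livers. Sham replicate 1 lay inside the 1 dpci range, and hspa5 did not pass the test (adjusted p = 0.218). Of 71 translocon and vesicle coat genes 10 (14.1%) were higher and 0 lower, but 4 were higher without 1 dpci replicate 1 or without replicate 2, 6 without sham replicate 2 and 0 with the pairs summed. Among 47 cytosolic chaperones 7 (14.9%) were higher and 2 lower (0 under both scalings). The stress-inducible Hsp90 gene hsp90aa1.2 had 263, 92.3, 362 and 345 CPM at 1 dpci, against 71.9, 7.27, 13.1, 13 and 27.2 CPM in sham livers (log2 fold change 3.32 ± 0.63 SE, adjusted p = 0.00164). The Hsp70 and Hsp90 co-chaperone stip1 was 2.51-fold higher (adjusted p = 0.00774).

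Of 47 proteasome genes 13 (27.7%) were higher and 1 lower (0 under both scalings), with a median 0.67 above that of all genes. The ubiquitin receptor adrm1 had 17.7, 17.2, 21.6 and 18.3 CPM at 1 dpci, against 5.72, 5, 5.54, 4.1 and 6.89 CPM in sham livers (log2 fold change 1.78 ± 0.25 SE, adjusted p = 0.000229). The base ATPase psmc1b was 2.87-fold higher, and the ubiquitin-conjugating enzyme ube2d2l had 59.3, 79.1, 34.5 and 25.1 CPM at 1 dpci, against 17.5, 8.41, 9.33, 9.35 and 7.1 CPM in sham livers (log2 fold change 2.25 ± 0.36 SE, adjusted p = 0.000484). The groups did not overlap for these genes, a condition of the rule that named most genes. Without 1 dpci replicate 3, 8 proteasome genes were higher, and 3 were with the pairs summed.

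Some transcription factors of the immediate response rose many-fold. Of 33 AP-1 and immediate early genes 8 (24.2%) were higher and 3 lower (2 under both scalings). Others, among them fosab, jun, junbb, jund, btg2 and dusp1, were not called. The Fos family gene fosl2 had 74.3, 64, 78.4 and 88.2 CPM at 1 dpci, against 4.06, 4.55, 1.17, 2.51 and 6.28 CPM in sham livers (log2 fold change 4.34 ± 0.52 SE, adjusted p = 9.34e-05). The Jun family gene junba had 106, 153, 50.5 and 42.2 CPM at 1 dpci, against 2.4, 8.86, 5.83, 6.38 and 5.68 CPM in sham livers (log2 fold change 3.91 ± 0.64 SE, adjusted p = 0.000621), and was highest in 1 dpci replicates 1 and 2. Another Fos family member, fosl1a, and batf3, a partner of Jun proteins, were 17.3-fold and 26.6-fold higher (adjusted p = 0.00138 and 0.001). The growth arrest gene gadd45aa had 22, 19, 2.93 and 1.76 CPM at 1 dpci, against 0.553, 0.227, 1.17, 1.14 and 1.22 CPM in sham livers (log2 fold change 3.71 ± 0.88 SE, adjusted p = 0.00721), with the 1 dpci libraries split between the pairs.

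Of 34 genes of the NF-kB pathway and its feedback 9 (26.5%) were higher and 1 lower (0 under both scalings). The higher ones included both inhibitors and receptors, among them tnip1 and nfkbiaa and the flagellin receptors tlr5a and tlr5b, while the inhibitors nfkbiab and nfkbie were not called and nfkbiz was the lower one. The atypical IkB protein bcl3 had 26.4, 18.6, 11.1 and 7.16 CPM at 1 dpci, against 0.553, 1.14, 0, 0.228 and 0.811 CPM in sham livers (log2 fold change 4.75 ± 0.89 SE, adjusted p = 0.00154). The inhibitor tnip1 had 453, 417, 73.4 and 84.1 CPM at 1 dpci, against 35.6, 31.6, 20.4, 38.1 and 32.6 CPM in sham livers (log2 fold change 3.02 ± 0.54 SE, adjusted p = 0.00114), so that replicates 1 and 2 lay several-fold above replicates 3 and 4, which in turn lay above every sham library. The TNF-induced gene tnfaip2b showed the same order, with 59, 62.8, 6.07 and 8.16 CPM at 1 dpci, against 2.58, 1.59, 1.75, 3.19 and 1.42 CPM in sham livers. Leaving out 1 dpci replicate 1 or replicate 2 left 4 higher genes in this list, and leaving out sham replicate 3 left 5.

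In the Il6 and Stat3 list 6 of 26 genes (23.1%) were higher and 1 lower (0 under both scalings). The Stat3 feedback inhibitor socs3b had 55.8, 36.7, 57.2 and 47.1 CPM at 1 dpci, against 3.14, 5.23, 7.58, 4.33 and 9.33 CPM in sham livers (log2 fold change 3.06 ± 0.46 SE, adjusted p = 0.000356). Its paralogue socs3a was 4.3-fold higher, the Stat3 target kinase pim1 6.41-fold and the shared receptor chain il6st 2.56-fold (adjusted p = 0.00822, 0.000304 and 0.0113). The acute phase transcription factor cebpb had 398, 431, 167 and 161 CPM at 1 dpci, against 73, 74.1, 54.2, 65.4 and 104 CPM in sham livers (log2 fold change 1.96 ± 0.32 SE, adjusted p = 0.000569). The groups did not overlap for any of these 5 genes, a condition of the rule that named most genes.

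Of 40 chemokines, cytokines and receptors 12 (30%) were higher, beside 9.43% of all genes, and 5 (12.5%) were lower (4 under both scalings), near the 14.5% of all genes, the higher ones including cxcl8a, il11a, ccl34a.4 and ccl35.1 and the lower ones cxcl12a, cxcl20 and cxcr4b. The most changed was lect2l, a leukocyte chemotaxin made by liver, with 1976, 2471, 498 and 498 CPM at 1 dpci, against 13.6, 15.9, 4.66, 3.88 and 21.9 CPM in sham livers (log2 fold change 6.82 ± 1.19 SE, adjusted p = 0.000926). It also belongs to the acute phase and neutrophil lists. The chemokine cxcl20 had 12, 10.4, 13.6 and 13.4 CPM at 1 dpci, against 60.3, 97.1, 63.8, 99.9 and 72.2 CPM in sham livers (log2 fold change -2.67 ± 0.28 SE, adjusted p = 5.37e-05), with no overlap and little spread at 1 dpci. The chemokine receptor cxcr4b was 6.04-fold lower (adjusted p = 0.0034). Without 1 dpci replicate 1 or without replicate 3, 8 genes of this list were higher and 3 lower, and with the pairs summed 3 were higher and 3 lower.

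Growth factor genes also split. The entry LOC101886665, annotated as growth/differentiation factor 15, a hormone released by stressed cells, had 32.2, 37.3, 40.2 and 35.8 CPM at 1 dpci, against 0.922, 0.227, 0, 0 and 1.82 CPM in sham livers (log2 fold change 5.79 ± 0.89 SE, adjusted p = 0.000399). The Egf family ligand hbegfb had 29.9, 37.8, 5.42 and 4.52 CPM at 1 dpci, against 1.29, 0.909, 0, 1.14 and 1.62 CPM in sham livers (log2 fold change 4.21 ± 0.70 SE, adjusted p = 0.000699), highest in replicates 1 and 2. The relaxin family gene rln3a had 400.1, 231, 27 and 8.03 CPM at 1 dpci, against 0, 0.909, 0, 0 and 0.203 CPM in sham livers (log2 fold change 9.42 ± 1.59 SE, adjusted p = 0.000755), also highest in replicates 1 and 2. Of 43 Igf, insulin and growth factor genes 6 (14%) were higher and 10 (23.3%) lower (3 under both scalings). Over all genes these shares were 9.43% and 14.5%. The binding protein igfbp1a, which restrains Igf and rises in fasting, had 687, 574, 758 and 472 CPM at 1 dpci, against 24.3, 141, 49.6, 49.3 and 127 CPM in sham livers (log2 fold change 2.99 ± 0.75 SE, adjusted p = 0.00957). The lower calls with TMM included both growth hormone receptors, ghra and ghrb, and igf1, igf2a and igfals, the growth hormone targets that the liver secretes, but of these only igf2a was also called with column totals. The lower calls of the list numbered 0 with the pairs summed, 2 without 1 dpci replicate 1, 3 without replicate 2, 5 without replicate 3 and 6 without sham replicate 2 or 3.

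**Figure D3:**
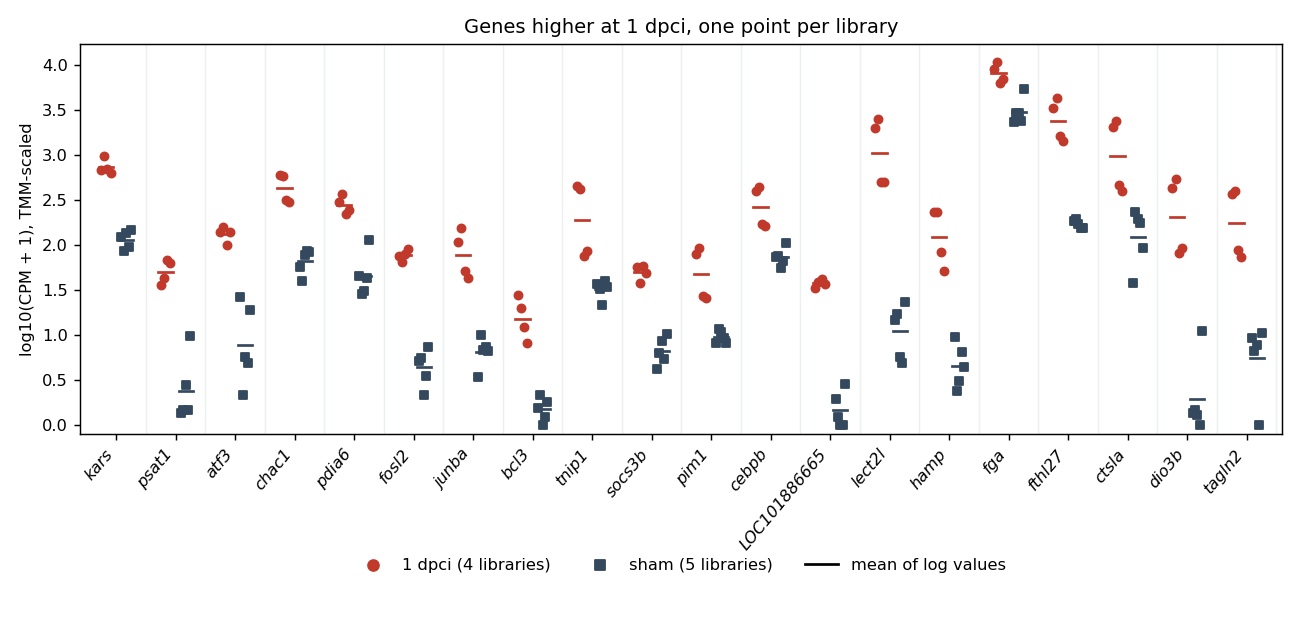
TMM-scaled expression of 20 genes higher at 1 dpci, as log10(CPM + 1), 1 point per library and 1 dpci left of sham; bars are means of the log values. The 4 injured libraries lay above the 5 sham libraries for every gene drawn, a condition of the rule that named most genes. For tnip1, lect2l, ctsla, dio3b and tagln2 the injured libraries fell into a higher and a lower pair.

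Plasma proteins did not rise together. Of 36 acute phase and iron plasma proteins 6 (16.7%) were higher and 17 (47.2%) lower with TMM (11 lower under both scalings). Over all genes these shares were 9.43% and 14.5%. The median of the list lay -1.13 from that of all genes. Hepcidin (hamp), the hormone that limits iron export, had 228, 230.1, 81.9 and 50.2 CPM at 1 dpci, against 8.48, 1.36, 2.04, 5.47 and 3.45 CPM in sham livers (log2 fold change 5.12 ± 1.30 SE, adjusted p = 0.0107). Serum amyloid A (saa) had 64.9, 58.9, 15 and 16.9 CPM at 1 dpci, against 2.58, 0.682, 0, 5.02 and 0.608 CPM in sham livers (log2 fold change 4.41 ± 1.33 SE, adjusted p = 0.0246), a call that was lost without 1 dpci replicate 1 (adjusted p = 0.0629), without replicate 2 (0.0571) or without sham replicate 2 (0.0576). Of the carriers of resting plasma, retinol-binding protein rbp4 had 57.9, 16.3, 89.3 and 125 CPM at 1 dpci, against 1588, 1768, 2110.1, 1831 and 2291 CPM in sham livers (log2 fold change -4.73 ± 0.71 SE, adjusted p = 0.000356), while others of this list, such as serpina7 and ambp, were not called. The protease inhibitor fetuin B (fetub) had 102, 80.3, 334 and 377 CPM at 1 dpci, against 1789, 3852, 4785, 3715 and 2467 CPM in sham livers (log2 fold change -3.89 ± 0.55 SE, adjusted p = 0.00024). Transferrin (tfa), among the most highly counted genes, was 1.92-fold lower with TMM (adjusted p = 0.0137), while its log2 fold change was -0.02 with column totals.

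A large shift in counts was in CD59-like entries, named for a membrane inhibitor of complement, of which 2 of 4 were higher and 1 lower under both scalings. BX908782.2 had 15529, 20463, 4806 and 4006 CPM at 1 dpci, against 54, 41.8, 27.1, 18.5 and 46.6 CPM in sham livers (log2 fold change 8.22 ± 1.39 SE, adjusted p = 0.000779). The neighbouring entry BX908782.3 had 1560.0, 2189.6, 946 and 797 CPM at 1 dpci, against 158, 211, 317, 232 and 122 CPM in sham livers (log2 fold change 2.72 ± 0.45 SE, adjusted p = 0.00062). The lower one was ly6m7, of the wider Ly6 family, with no count in any 1 dpci library, which allows up to 3 counts, against 6.82, 15.7, 2.33, 13.5 and 0 CPM in sham livers. It was at least 18.2-fold lower (adjusted p = 0.0159), although sham replicate 5 also had no count, and the call was lost with the pairs summed. The 4 CD59-like entries together took 2.21, 2.72, 0.973 and 0.74% of counts at 1 dpci, against 0.0188, 0.0176, 0.0212, 0.0205 and 0.0214% in sham livers. The entries BX908782.2 and BX908782.3 carry the same description and may share reads, so the division between them is uncertain. Of 33 complement genes, which span early and terminal components and their regulators, 0 were higher and 16 (48.5%) lower with TMM (7 under both scalings). Over all genes 9.43% were higher and 14.5% lower. The complement median lay -1.13 from that of all genes. Complement component c4 had 77.2, 93.5, 5.97 and 17.7 CPM at 1 dpci, against 251, 484, 482, 409.5 and 254 CPM in sham livers (log2 fold change -2.95 ± 0.82 SE, adjusted p = 0.0162). The lectin pathway protease masp2 was 6.64-fold lower and vitronectin (vtnb), an inhibitor of the terminal complex, 6.21-fold lower (adjusted p = 0.000254 and 0.000472). The factor H-like gene cfhl1 had 0.91, 0.879, 0.651 and 0.879 CPM at 1 dpci, against 142, 42.5, 39.4, 91.4 and 8.51 CPM in sham livers (log2 fold change -6.26 ± 1.81 SE, adjusted p = 0.0201), and the adjusted p was 0.0513 to 0.0582 when any 1 of the 1 dpci libraries was left out. The most counted member, c3a.1, had 16451, 19021, 7108 and 10976 CPM at 1 dpci, against 8052, 7242, 10337, 7719 and 9476 CPM in sham livers and did not pass the test with TMM (adjusted p = 0.228), though it was higher with column totals. The complement genes together took 2.85, 3.09, 2.56 and 3.07% of counts at 1 dpci, against 1.73, 1.36, 1.44, 1.72 and 2.46% in sham livers, so the share was higher at 1 dpci although no member passed the test as higher with TMM. Scaled by TMM, their sum was 15154 to 25728 CPM at 1 dpci, against 20159 to 23920 CPM in sham livers, and the groups overlapped. Without 1 dpci replicate 1, 10 members were lower, and 4 with the pairs summed.

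Coagulation genes were called in both directions, with 4 of 25 (16%) higher and 5 (20%) lower (4 under both scalings). Over all genes the shares were 9.43% and 14.5%. The fibrinogen chains fga and fgb, which form the clot, rose. The chain fga had 8864, 10651, 6326 and 6945 CPM at 1 dpci, against 2292, 2912, 2891, 2383 and 5312 CPM in sham livers (log2 fold change 1.38 ± 0.28 SE, adjusted p = 0.00241), and fgb was 1.92-fold higher (adjusted p = 0.00948). The inhibitor of clotting tfpia was 3.92-fold higher (adjusted p = 0.00259). Factor VII genes fell: f7i had 35.3, 42.5, 61.9 and 66.8 CPM at 1 dpci, against 516, 761, 644, 617 and 293 CPM in sham livers (log2 fold change -3.45 ± 0.46 SE, adjusted p = 0.000191), and f7 was 4.16-fold lower (adjusted p = 0.00032). The protease inhibitor a2ml had 15.2, 9.32, 18.3 and 18.3 CPM at 1 dpci, against 146, 268, 318, 288 and 136 CPM in sham livers (log2 fold change -3.92 ± 0.54 SE, adjusted p = 0.000222). The coagulation genes together took 3.13, 3.36, 3.14 and 3.09% of counts at 1 dpci, against 0.943, 0.844, 0.908, 1.03 and 1.98% in sham livers, with sham replicate 5 highest among the sham libraries. Scaled by TMM, their sum was 18637 to 28021 CPM at 1 dpci, against 11008 to 19323 CPM in sham livers, with overlap.

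**Figure D4:**
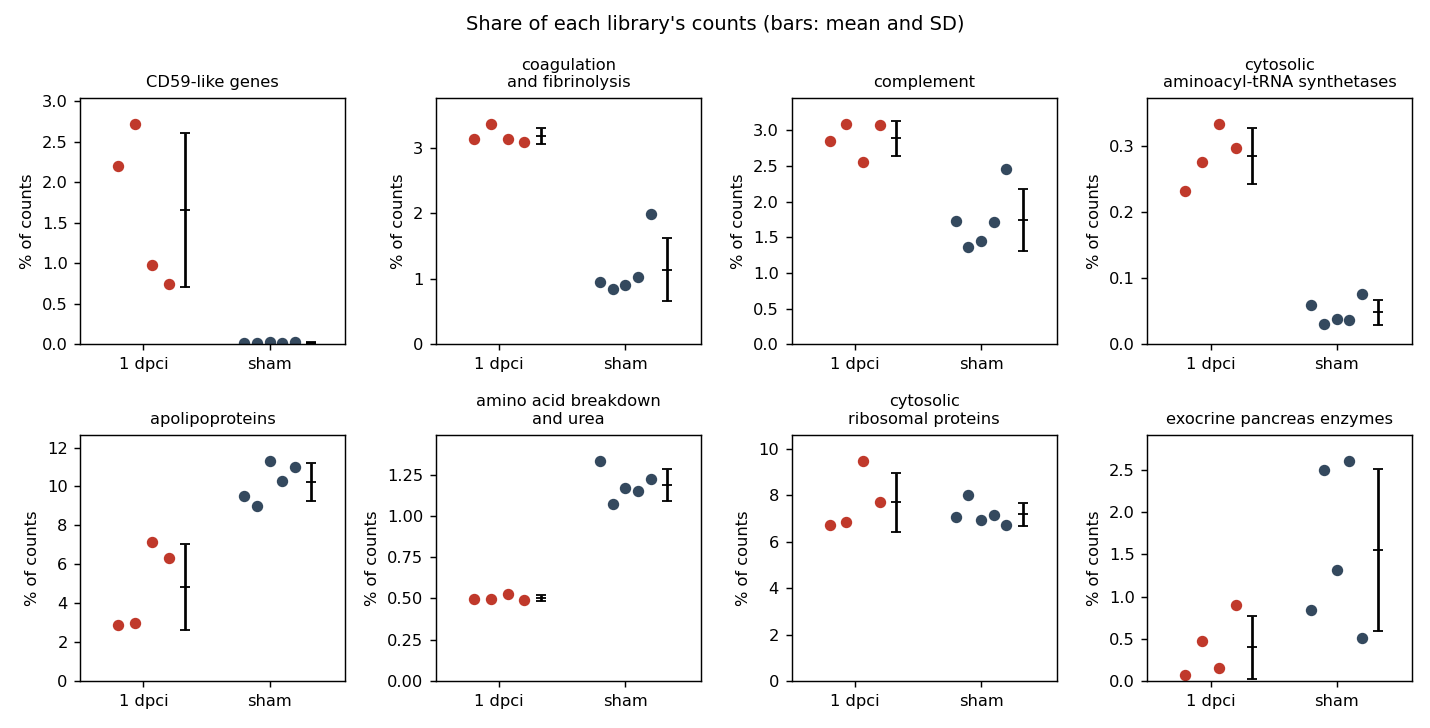
Share of all counts, in percent, taken by 8 gene lists in each library, 1 dpci left of sham; black marks are the mean and SD. The groups were apart for CD59-like genes, coagulation, complement, aminoacyl-tRNA synthetases, apolipoproteins and amino acid breakdown, and overlapped for cytosolic ribosomal proteins (6.74 to 9.49% at 1 dpci) and exocrine pancreas enzymes; with TMM scaling coagulation and complement overlapped too.

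The ferritin heavy chain-like genes fthl27 and fthl31 rose beside hepcidin, while iron and heme genes were called in both directions. Of 35 iron and heme genes 7 (20%) were higher and 7 (20%) lower (2 under both scalings), beside 9.43% and 14.5% of all genes. The ferritin heavy chain-like gene fthl27 had 3305, 4268, 1602 and 1409.7 CPM at 1 dpci, against 184, 193, 168, 151 and 151 CPM in sham livers (log2 fold change 3.96 ± 0.49 SE, adjusted p = 0.000106), and fthl31 was 35.6-fold higher (adjusted p = 0.000359). The transferrin receptor tfr1a, which takes iron in, had 2.43, 1.93, 2.6 and 3.14 CPM at 1 dpci, against 11.1, 17, 13.1, 73.9 and 7.7 CPM in sham livers (log2 fold change -3.26 ± 0.75 SE, adjusted p = 0.00574). The metalloreductase steap4 had 5487, 6434, 405 and 449 CPM at 1 dpci, against 176, 212, 229.7, 439 and 323 CPM in sham livers, so replicates 1 and 2 lay far above the sham libraries and replicate 3 below the highest of them (log2 fold change 3.53 ± 0.86 SE, adjusted p = 0.0082). The heme oxygenases hmox1a and hmox2b were among the higher calls. The lower calls in this list were 3 without 1 dpci replicate 1 and 4 without any 1 of 1 dpci replicates 2 and 3 and sham replicates 2 and 4.

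Macrophage and antigen presentation genes were called in both directions. Of 25 genes 5 (20%, beside 9.43% of all genes) were higher. Another 4 (16%, near the 14.5% of all genes) were lower, 3 of them under both scalings. Without 1 dpci replicate 3, 3 were higher. An entry named MFAP4 (1 of many), whose family includes a macrophage marker of zebrafish, had 601, 619, 494 and 306 CPM at 1 dpci, against 1.48, 4.32, 2.33, 1.6 and 6.08 CPM in sham livers (log2 fold change 7.31 ± 0.80 SE, adjusted p = 5.89e-05). The marker mfap4 itself had 10.9, 3.87, 23 and 18.8 CPM at 1 dpci, against 7.19, 1.82, 2.04, 1.6 and 3.04 CPM in sham livers (log2 fold change 2.15 ± 0.62 SE, adjusted p = 0.0195), and its call was lost without 1 dpci replicate 3. The invariant chains of antigen presentation, cd74a and cd74b, fell together. The first of them, cd74a, had 2.88, 1.76, 12.3 and 6.4 CPM at 1 dpci, against 347, 123, 80.2, 188 and 169 CPM in sham livers (log2 fold change -4.94 ± 1.04 SE, adjusted p = 0.00331), and cd74b was 33.8-fold lower. Of 45 lysosomal genes 4 (8.89%, near the 9.43% of all genes) were higher and 3 (6.67%) lower (1 under both scalings). Of 17 ABC transporters 1 (5.88%) was higher and 2 (11.8%) lower (0 under both). Among the higher ones, the cathepsin ctsla had 2009.8, 2393, 459.5 and 398 CPM at 1 dpci, against 37.1, 229, 190.3, 175 and 90.2 CPM in sham livers (log2 fold change 3.19 ± 0.73 SE, adjusted p = 0.00591), ctsk was 6.82-fold higher, and the cholesterol exporter abca1b, an ABC transporter, had 162, 249, 59.9 and 63.6 CPM at 1 dpci, against 7.38, 4.55, 2.33, 3.42 and 12.8 CPM in sham livers (log2 fold change 4.44 ± 0.65 SE, adjusted p = 0.000304). In bulk tissue, more or fewer cells of a type and more or less RNA per cell cannot be told apart.

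The actin cytoskeleton list had 14 of 61 genes higher (23%, beside 9.43% of all genes) and 9 lower (14.8%, near the 14.5% of all genes, and 4 under both scalings). The higher ones were largely non-muscle genes, among them actb2, myh9b, zyx and tpm3. Transgelin 2 (tagln2) had 365, 393, 85.6 and 71.7 CPM at 1 dpci, against 8.3, 5.68, 6.7, 0 and 9.53 CPM in sham livers (log2 fold change 5.23 ± 0.85 SE, adjusted p = 0.000608), and the Arp2/3 subunit arpc5a was 3.6-fold higher (adjusted p = 0.0034). The lower ones included smooth muscle genes. Smooth muscle actin (acta2) had 1.97, 2.81, 4.45 and 3.01 CPM at 1 dpci, against 76.3, 40, 12.2, 42.2 and 4.26 CPM in sham livers (log2 fold change -3.50 ± 0.74 SE, adjusted p = 0.00341), and tagln was 8.26-fold lower (adjusted p = 0.0106). Without 1 dpci replicate 1, 5 genes of this list were lower. Of 14 collagens 0 were higher and 3 (21.4%) lower with TMM (1 under both scalings), beside 9.43% and 14.5% of all genes. With column totals 3 were higher and 1 lower, so the direction of the calls depended on the scaling. The collagen median with TMM lay only -0.18 from that of all genes. The collagen VI chain col6a1 had 3.94, 0.703, 1.84 and 2.13 CPM at 1 dpci, against 24.9, 24.1, 21.9, 8.44 and 11.4 CPM in sham livers (log2 fold change -3.05 ± 0.58 SE, adjusted p = 0.00157). The type I collagen chain col1a2 was 2.47-fold lower with TMM (adjusted p = 0.0127) and not called with column totals, at a log2 fold change of -0.38. The fibronectin receptor subunit itga5 was 3.8-fold higher (adjusted p = 0.00304).

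Amino acid breakdown genes fell together. Of 69 genes of amino acid breakdown and the urea cycle 0 were higher and 43 (62.3%) lower with TMM, beside 14.5% of all genes, 30 of them under both scalings, and their median lay -2.04 from that of all genes. With the 1 dpci pairs summed 26 stayed lower, and 44 were lower without sham replicate 5. Cysteine dioxygenase (cdo1) had 12.4, 8.96, 34.3 and 24.9 CPM at 1 dpci, against 1675, 501, 643, 369 and 626 CPM in sham livers (log2 fold change -5.24 ± 0.72 SE, adjusted p = 0.000222). Histidine ammonia-lyase (hal) had 2.58, 4.22, 2.39 and 4.14 CPM at 1 dpci, against 72.8, 128, 154, 72.1 and 79.1 CPM in sham livers (log2 fold change -4.92 ± 0.55 SE, adjusted p = 5.98e-05). The methionine cycle enzyme bhmt had 223, 328, 318 and 331 CPM at 1 dpci, against 4115, 3151, 3366, 3319 and 1699 CPM in sham livers (log2 fold change -3.38 ± 0.38 SE, adjusted p = 5.98e-05), and sarcosine dehydrogenase (sardh) was 30-fold lower (adjusted p = 0.000333). The D-amino acid oxidase dao.3 had no count in any 1 dpci library, which allows up to 3 counts, and 7.19, 71.4, 55.7, 12.1 and 0.405 CPM in sham livers. Taken from the sham mean, it was at least 69.7-fold lower against the mean of that floor, 0.421 CPM. Sham replicate 5 lay under this floor itself. As a share of counts the list took 0.498, 0.495, 0.527 and 0.488% of counts at 1 dpci, against 1.33, 1.07, 1.17, 1.15 and 1.23% in sham livers, with almost no spread at 1 dpci.

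Sugar storage and release fell as well. Of 26 gluconeogenesis and glycogen genes 1 (3.85%) was higher and 13 (50%) lower (9 under both scalings), beside 9.43% and 14.5% of all genes. The glycogen phosphorylase pygl had 29.3, 18.1, 69.7 and 78.1 CPM at 1 dpci, against 339.7, 459.6, 375, 529 and 299 CPM in sham livers (log2 fold change -3.03 ± 0.47 SE, adjusted p = 0.000395). Glycogen branching and precursor enzymes gbe1b and ugp2a were 6.38-fold and 9.69-fold lower (adjusted p = 0.00076 and 0.000399). Glycolysis genes, by contrast, were called in both directions. Of 25 genes 5 (20%) were higher and 8 (32%) lower (3 under both scalings), beside 9.43% and 14.5% of all genes, and 13 had a positive fold change. The lower ones included pgam2 with 4.09, 2.29, 2.39 and 2.26 CPM at 1 dpci, against 42.6, 36.1, 62.7, 38.3 and 47.2 CPM in sham livers (log2 fold change -4.03 ± 0.69 SE, adjusted p = 0.000796) and the lactate dehydrogenase ldhbb with 88.7, 93.9, 134 and 157 CPM at 1 dpci, against 689, 869, 601, 929 and 819 CPM in sham livers (log2 fold change -2.72 ± 0.40 SE, adjusted p = 0.000311). The isomerase tpi1b was 3.15-fold lower with TMM (adjusted p = 0.00354) and not called with column totals. Leaving out 1 dpci replicate 4 or sham replicate 3 left 4 lower glycolysis genes, leaving out 1 dpci replicate 3 or sham replicate 2 left 5, and leaving out 1 dpci replicate 2 left 3 higher ones. Myo-inositol oxygenase (miox), which starts the breakdown of inositol, had 5.91, 4.04, 2.6 and 3.51 CPM at 1 dpci, against 509, 918, 771, 495 and 92.4 CPM in sham livers (log2 fold change -7.11 ± 0.68 SE, adjusted p = 5.37e-05).

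Fat oxidation genes were called only as lower with TMM. Of 47 fatty acid oxidation genes 0 were higher and 20 (42.6%) lower with TMM (7 under both scalings), beside 9.43% and 14.5% of all genes. Their median lay -0.96 from that of all genes. With column totals 7 were higher and 7 lower. The thiolase acat1 had 16.4, 16.9, 29.4 and 27.7 CPM at 1 dpci, against 193, 256, 294, 171 and 239 CPM in sham livers (log2 fold change -3.35 ± 0.37 SE, adjusted p = 5.89e-05). The peroxisomal genes phyh and scp2a, which act on branched chains, were 10.6-fold and 5.13-fold lower (adjusted p = 0.000561 and 5.98e-05). Without 1 dpci replicate 1, 13 members were lower. Among respiratory chain genes, 20 of 71 nuclear subunits (28.2%) and 5 of 13 mitochondrially encoded genes (38.5%) were lower with TMM. Under both scalings only 4 and 0 were lower, and with column totals 8 and 1 were higher. The complex I gene mt-nd4l had 24.7, 23.9, 19.8 and 16.6 CPM at 1 dpci, against 45.2, 75.2, 98.5, 45.8 and 60.2 CPM in sham livers, a log2 fold change of -1.61 with TMM and -0.70 with column totals. The nuclear count was 11 without 1 dpci replicate 1 and 13 without replicate 2, and the mitochondrial count was 1 to 3 without any 1 of the 1 dpci libraries or sham replicate 3. The uncoupling protein ucp1 was 3.44-fold lower with TMM (adjusted p = 0.0119) and not called with column totals.

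**Figure D5:**
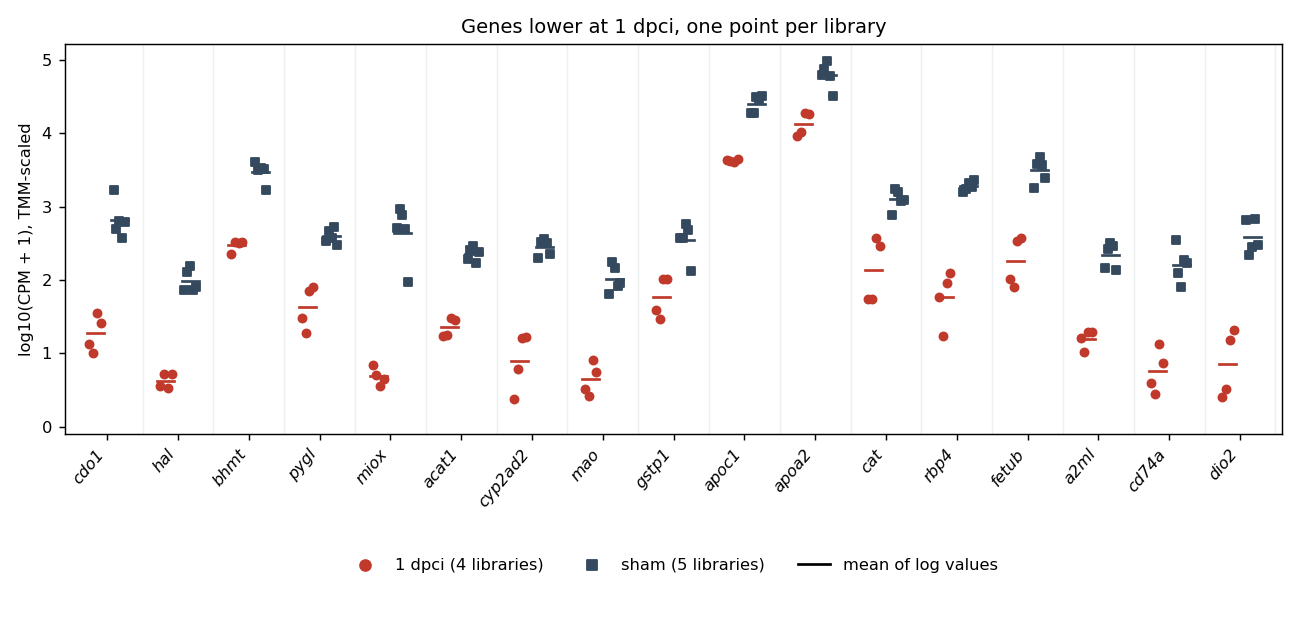
TMM-scaled expression of 17 genes lower at 1 dpci, as log10(CPM + 1), 1 point per library and 1 dpci left of sham; bars are means of the log values. The 4 injured libraries lay below the 5 sham libraries for every gene drawn, a condition of the rule that named most genes. For example, cdo1 lay at 8.96 to 34.3 CPM at 1 dpci and 369 to 1675 CPM in sham livers.

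More detoxification genes were lower than higher in each of their lists. Of 44 cytochrome P450 genes 2 (4.55%) were higher and 20 (45.5%) lower (14 under both scalings). Of 36 conjugation enzymes 2 (5.56%) were higher and 14 (38.9%) lower (10 under both scalings). Of 32 aldehyde, alcohol and flavin oxidoreductases 1 (3.12%) was higher and 17 (53.1%) lower (10 under both scalings). Over all genes the shares were 9.43% higher, 14.5% lower and 5.61% lower under both scalings. With column totals the higher calls were 6, 6 and 3 and the lower ones 14, 10 and 10. The P450 genes together took 0.2195 to 0.2555% of counts at 1 dpci, against 0.179 to 0.24% in sham livers, with overlap. Scaled by TMM, their sum was 1472.3 to 1950.2 CPM at 1 dpci, against 2088.7 to 2994.4 CPM in sham livers. The P450 gene cyp2ad2 had 1.36, 5.1, 15.1 and 15.8 CPM at 1 dpci, against 197, 329, 357, 321 and 226 CPM in sham livers (log2 fold change -4.93 ± 0.61 SE, adjusted p = 0.000106), and cyp2p7 was 42.2-fold lower. The epoxide hydrolase ephx5 had 0.152, 1.23, 3.25 and 2.13 CPM at 1 dpci, against 48.7, 72.7, 75.2, 71.8 and 24.3 CPM in sham livers (log2 fold change -5.06 ± 0.68 SE, adjusted p = 0.000198). Monoamine oxidase (mao) had 2.27, 1.58, 7.05 and 4.52 CPM at 1 dpci, against 63.6, 173, 146, 81.4 and 90.2 CPM in sham livers (log2 fold change -4.82 ± 0.71 SE, adjusted p = 0.000304). The aldo-keto reductase akr1b1 was 15.9-fold lower, the glucuronosyltransferase ugt5b2 9.17-fold, the sulfotransferase sult1st6 6.67-fold and the glutathione transferase gstp1 5.71-fold. With TMM the groups did not overlap for any of these 8 genes, a condition of the rule that named most genes. With column totals they overlapped for ugt5b2 and gstp1. With the pairs summed, 9, 7 and 9 genes of the 3 lists stayed lower.

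Antioxidant genes were called in both directions, beside 9.43% higher and 14.5% lower among all genes. Of 37 genes 5 (13.5%) were higher and 8 (21.6%) lower (5 under both scalings). The higher ones were fthl27, hmox1a, prdx5, sqstm1 and txnrd3, and the lower ones included cat, sod1 and prdx2. Peroxiredoxins, which remove peroxides, were thus called in both directions (prdx5 and prdx2), and prdx1 and prdx6 were not called. Catalase (cat) had 53.2, 54.5, 374 and 293 CPM at 1 dpci, against 775, 1744, 1582, 1207 and 1246 CPM in sham livers (log2 fold change -2.76 ± 0.60 SE, adjusted p = 0.00423), lowest in replicates 1 and 2. The superoxide dismutase sod1 had 70.5, 68.6, 122 and 93.3 CPM at 1 dpci, against 549.7, 513, 908, 571 and 254 CPM in sham livers (log2 fold change -2.66 ± 0.46 SE, adjusted p = 0.000926).

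Lipoprotein genes fell. Of 15 apolipoproteins 0 were higher and 9 (60%) lower (6 under both scalings), beside 9.43% and 14.5% of all genes. Their median lay -2.13 from that of all genes. The lipoprotein lipase inhibitor apoc1 had 4388, 4246, 4044 and 4518 CPM at 1 dpci, against 18951, 19154, 31488, 29876 and 32028 CPM in sham livers (log2 fold change -2.61 ± 0.31 SE, adjusted p = 9.2e-05). The high density lipoprotein gene apoa2 had 9235, 10478, 18978 and 18560 CPM at 1 dpci, against 62231, 75350, 97672, 61716 and 32365 CPM in sham livers (log2 fold change -2.20 ± 0.40 SE, adjusted p = 0.00123), and apoba, a form of the backbone protein of very low density lipoprotein, had 15.8, 15.5, 118 and 149.8 CPM at 1 dpci, against 455, 559, 644, 566 and 931 CPM in sham livers (log2 fold change -3.08 ± 0.64 SE, adjusted p = 0.00296). The gene apoa1b of apolipoprotein A-I, the main protein of high density lipoprotein, was 3.72-fold lower with TMM (adjusted p = 0.00768) and not called with column totals. The apolipoproteins took 2.89, 2.99, 7.17 and 6.32% of counts at 1 dpci, against 9.5, 9, 11.3, 10.3 and 11% in sham livers, and replicates 1 and 2 were the lowest. Among lipid binding and uptake genes 2 of 24 (8.33%, near the 9.43% of all genes) were higher and 8 (33.3%) lower (4 under both scalings). In that list 5 were lower without any 1 of 1 dpci replicates 1, 2 and 4. The lipid transfer protein cetp and the lipase lpl were 18.3-fold and 5.9-fold lower, and the fatty acid binder fabp3 was 5.32-fold lower (adjusted p = 0.00283, 0.00774 and 0.000222). The last enzymes of triglyceride synthesis went opposite ways. The acyltransferase dgat1b had 78.6, 96.7, 23.1 and 25 CPM at 1 dpci, against 11.8, 4.55, 11.4, 11.9 and 6.89 CPM in sham livers (log2 fold change 2.58 ± 0.57 SE, adjusted p = 0.00437), while dgat2 had 109, 144, 110.3 and 145 CPM at 1 dpci, against 1548, 461, 706, 383 and 344 CPM in sham livers (log2 fold change -2.44 ± 0.46 SE, adjusted p = 0.00164).

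Bile acid genes held large folds in both directions. Small heterodimer partner, the bile acid-induced repressor, is represented by nr0b2b, which had 41.7, 30.2, 4.12 and 4.64 CPM at 1 dpci, against 0.184, 0, 0, 0 and 0 CPM in sham livers and was at least 29.7-fold higher against the floor of 3 counts per sham library (log2 fold change 8.29 ± 1.75 SE, adjusted p = 0.00345). Its paralogue nr0b2a had 0.303, 1.58, 2.06 and 1.51 CPM at 1 dpci, against 7.19, 26.6, 1.17, 10.3 and 11.2 CPM in sham livers, with overlap, and did not pass the test (log2 fold change -3.02, adjusted p = 0.0509), though it passed as lower with DESeq2, with edgeR's exact test, in a fit of the 1 dpci and sham libraries alone and without sham replicate 3. The transporter oatx had no count in any 1 dpci library, which allows up to 3 counts, and 79.1, 71.1, 51.9, 9.12 and 0.203 CPM in sham livers, so it was at least 100.4-fold lower. The sham libraries themselves ranged widely, with replicate 5 at the bottom. The oxysterol hydroxylase cyp39a1, at 0 or 1 count per 1 dpci library, was at least 44.1-fold lower. The bile acid-CoA synthetase family gene slc27a2a had 26.1, 14.1, 42.4 and 51.8 CPM at 1 dpci, against 141, 497, 343, 263 and 286 CPM in sham livers (log2 fold change -3.18 ± 0.64 SE, adjusted p = 0.00249), and the bile salt export pump abcb11b was 3.62-fold lower with TMM only (adjusted p = 0.0112). Over the list of 21 genes 2 (9.52%, near the 9.43% of all genes) were higher. The lower ones were 5 (23.8%, beside 14.5% of all genes), 4 of them under both scalings.

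Transcription factors of the hepatocyte had 4 of 51 genes higher and 8 lower (3 under both scalings), 7.84% and 15.7%, near the 9.43% and 14.5% of all genes. The higher were cebpb, nr0b2b, sall4 and xbp1. The lower included prox1a, onecut2, gata5, srebf1 and thrb, and klf15, which drives amino acid breakdown in fasting mammals, with 4.09, 8.96, 6.4 and 7.66 CPM at 1 dpci, against 62, 63.9, 36.1, 63.8 and 32 CPM in sham livers (log2 fold change -2.93 ± 0.45 SE, adjusted p = 0.000433). The lower calls were 3 without 1 dpci replicate 1 or without replicate 2 and 5 without 1 dpci replicate 3 or sham replicate 2. The deiodinases of thyroid hormone moved in opposite directions. The inactivating enzyme dio3b had 422, 542, 79.9 and 91.3 CPM at 1 dpci, against 0.369, 0.455, 0.291, 0 and 9.93 CPM in sham livers (log2 fold change 6.95 ± 1.39 SE, adjusted p = 0.0024). The activating enzyme dio2 had 1.52, 2.29, 14.3 and 19.8 CPM at 1 dpci, against 650.4, 219, 285, 688 and 297 CPM in sham livers (log2 fold change -5.48 ± 0.94 SE, adjusted p = 0.000816). In both genes replicates 1 and 2 were farther from the sham libraries than replicates 3 and 4.

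Few genes of DNA replication and mitosis were called, though both lists lay low. Their medians were -0.87 and -1.20 from that of all genes, and 7 and 3 members had a positive fold change. Of 41 DNA replication genes 1 (2.44%) was higher and 3 (7.32%) lower with TMM, with 0 lower under both scalings. Of 26 mitotic cyclins, kinases and kinesins 0 were higher and 4 lower (15.4%, near the 14.5% of all genes), 1 of them under both scalings. Without any 1 of 1 dpci replicates 1, 2 and 4, 2 mitotic genes were lower. The higher replication gene was rpa1, a subunit of the single-stranded DNA-binding complex, at 53.7, 63.3, 29.2 and 24.6 CPM at 1 dpci, against 16.6, 6.82, 15.4, 9.58 and 6.08 CPM in sham livers (log2 fold change 1.97 ± 0.51 SE, adjusted p = 0.0121). Of 23 G1 cyclins, Cdk inhibitors and Myc family genes 3 (13%), gadd45aa among them, were higher and 6 (26.1%) lower (2 under both scalings), or 2 lower without 1 dpci replicate 2 and 3 lower without 1 dpci replicate 3 or sham replicate 2 or 4. Ornithine decarboxylase (odc1), the first enzyme of polyamine synthesis, which rises early in many growing tissues, had 278, 272, 65.3 and 55.1 CPM at 1 dpci, against 31.9, 4.32, 21.3, 3.65 and 4.46 CPM in sham livers (log2 fold change 3.67 ± 0.98 SE, adjusted p = 0.0142).

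Markers of the cells a liver tube can hold were measured beside these results. Over all genes 9.43% were higher and 14.5% lower, and each marker list holds only a few genes. Of 6 hepatocyte markers 1, fgb, was higher and 5 were lower with TMM (1 under both scalings). The gene whose promoter drives the transgene, fabp10a, had 5804, 5516, 7357 and 6621 CPM at 1 dpci, against 16706, 23501, 21126, 22136 and 11382 CPM in sham livers (log2 fold change -1.58 ± 0.48 SE, adjusted p = 0.0243), with a log2 fold change of -0.62 and no call with column totals. Its call was lost without 1 dpci replicate 1, 2 or 4. All 4 biliary and all 4 endothelial markers missed the threshold with TMM, while 1 and 3 of them were higher with column totals. In a wider list of 29 endothelial genes 6 (20.7%) were higher and 2 lower (0 under both scalings), with 3 higher without sham replicate 4 and 2 with the pairs summed. No marker of T and NK cells, B cells or thrombocytes could be tested. Red cell genes were lower: hbba1 had 420.1, 383, 834 and 633 CPM at 1 dpci, against 1839, 3850.5, 3129, 10678 and 1533 CPM in sham livers (log2 fold change -2.89 ± 0.66 SE, adjusted p = 0.00575), with sham replicate 4 far above the rest, and hbaa1 was 6.52-fold lower (adjusted p = 0.0142). Of 4 neutrophil markers 0 were higher and 1 lower (0 under both scalings), while in a wider list of 19 neutrophil genes 4 (21.1%), lect2l and cxcl8a among them, were higher and 1 lower (0 under both). That count of higher genes was 1 without 1 dpci replicate 1 and 2 without replicate 2 or with the pairs summed. Of 5 macrophage markers 2 were higher and 2 lower (2 under both scalings). Of 7 stellate cell and fibroblast markers 1 was higher and 4 were lower (3 under both scalings).

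Pancreatic enzymes were counted in every tube and were lower at 1 dpci with TMM. In zebrafish pancreatic tissue lies close to the liver. Of 18 exocrine pancreas genes 0 were higher and 15 (83.3%) lower with TMM (6 under both scalings), beside 9.43% and 14.5% of all genes. Together they took 0.0654, 0.474, 0.152 and 0.898% of counts at 1 dpci, against 0.839, 2.5, 1.31, 2.61 and 0.504% in sham livers, with overlap between the groups. The trypsin gene prss1 had 179, 1344, 406 and 1929 CPM at 1 dpci, against 2840.0, 9839, 6734, 7971 and 1121 CPM in sham livers (log2 fold change -2.56 ± 0.84 SE, adjusted p = 0.0354), a call lost without any 1 of 1 dpci replicates 1, 2 and 3 and sham replicates 2, 3 and 4 and not made with column totals. The trypsin-like gene prss59.1 and the lipase cel.1 were 12-fold and 16-fold lower (adjusted p = 0.0322 and 0.0184), and both lost the call without 1 dpci replicate 1 or 3. The call of prss59.1 was also lost without 1 dpci replicate 2 or sham replicate 2 or 4. The pancreatic disulfide isomerase pdia2, counted above among the endoplasmic reticulum genes, was 21.5-fold lower. The count of lower genes was 1 without 1 dpci replicate 1, 4 without replicate 2, 2 without replicate 3, 5 without sham replicate 2 or 4, 7 without sham replicate 3, and 1 with the pairs summed. The part of pancreatic tissue in the other falls was not tested.

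Genes whose names differ only in a final a or b, as those of many zebrafish duplicates do, did not always move together. The pairs were taken by name alone, so some may not be duplicates. Among 537 pairs of genes that share a name and end in a and b, 33 had both members called: 10 pairs both higher, 14 both lower and 9 in opposite directions, 4 of these under both scalings. A further 178 pairs had exactly 1 member called. Over all genes tested 23.9% were called, 9.43% higher and 14.5% lower. Unrelated genes were not paired for comparison. The counts therefore do not show that duplicates part more often than other genes do. The 9 pairs were picked out after their values were seen. Of the Foxo3 transcription factors foxo3a fell and foxo3b rose. The first, foxo3a, had 0, 0.176, 0.325 and 0 CPM at 1 dpci, against 7.56, 2.73, 2.91, 0.912 and 1.01 CPM in sham livers, and foxo3b had 71.7, 81, 20.2 and 20.1 CPM at 1 dpci, against 17.5, 8.86, 12, 13 and 29.4 CPM in sham livers (adjusted p = 0.00516 and 0.0259). The foxo3b call was lost without 1 dpci replicate 1 or 2 or sham replicate 2, 3 or 4. The calcium sensors stim1a and stim1b were opposed without overlap, with stim1a at 68.7, 74.5, 38 and 41.9 CPM at 1 dpci, against 7.75, 7.73, 13.4, 8.66 and 7.91 CPM in sham livers (log2 fold change 2.62 ± 0.42 SE, adjusted p = 0.000509) and stim1b at 4.7, 3.52, 7.59 and 6.78 CPM at 1 dpci, against 21.9, 19.3, 17.8, 22.1 and 28.2 CPM in sham livers (log2 fold change -1.94 ± 0.33 SE, adjusted p = 0.000755). The vitamin B12 binder tcnbb had 91.9, 97, 30.2 and 39.4 CPM at 1 dpci, against 2.4, 0, 0.583, 0.912 and 4.26 CPM in sham livers (log2 fold change 5.24 ± 1.00 SE, adjusted p = 0.00172), while tcnba had 1.97, 0.879, 0.651 and 0.377 CPM at 1 dpci, against 99.2, 41.4, 10.2, 62.2 and 0.608 CPM in sham livers, and the tcnba call was lost without any 1 library except sham replicates 3 and 5. The apoptosis gene diablob was 2.86-fold higher, whereas diabloa had 19.9, 17.1, 36.7 and 34.5 CPM at 1 dpci, against 31.9, 1365, 1261, 176 and 181 CPM in sham livers, with overlap through sham replicate 1.

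In the other 5 pairs the lower member was called with TMM alone. The oxidase of protein folding ero1a had 19.1, 6.5, 3.69 and 2.51 CPM at 1 dpci and at most 2 counts in any sham library, at least 11.7-fold higher against the floor, while ero1b had 51.3, 43.4, 78.6 and 81.3 CPM at 1 dpci, against 259, 245, 221, 260.2 and 109.9 CPM in sham livers (log2 fold change -1.78 ± 0.46 SE, adjusted p = 0.0109). The angiogenic growth factor vegfaa had 21.1, 17.2, 4.77 and 5.77 CPM at 1 dpci, against 3.14, 1.82, 0, 2.05 and 3.24 CPM in sham livers (log2 fold change 2.52 ± 0.62 SE, adjusted p = 0.00838), and vegfab had 25.2, 18.3, 29.5 and 33.4 CPM at 1 dpci, against 51.3, 62, 81.6, 52.2 and 55.5 CPM in sham livers (log2 fold change -1.18 ± 0.33 SE, adjusted p = 0.0178), a call lost without 1 dpci replicate 1 or 2. The metalloproteinase inhibitor timp2b was 7.57-fold higher (adjusted p = 0.00685), and timp2a had 1.06, 2.11, 2.28 and 2.51 CPM at 1 dpci, against 9.04, 21.8, 0.583, 14.1 and 4.66 CPM in sham livers, with overlap through sham replicate 3 and a call lost without 1 dpci replicate 1, 2 or 3 or sham replicate 2. The remaining pairs were eif2s1 and sema4b.

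Among the called genes, 1 dpci replicates 1 and 2 were more often the farther from sham. In 123 of the 793 higher genes (15.5%) replicates 1 and 2 both lay more than 2-fold above replicates 3 and 4, and in 20 both lay more than 2-fold below. In 139 of the 1216 lower genes (11.4%) they lay more than 2-fold below, and in 28 above. Over all genes tested the shares were 5.05% above and 6.69% below. The genes tnip1, lect2l, steap4, ctsla and dio3b were of the first kind and cat and apoba of the second, so that in these genes replicates 1 and 2 were the farther from sham. For kars, fosl2, socs3b, igfbp1a and the amino acid breakdown list the 4 libraries lay close together. Each pair has consecutive column codes, the labels do not say what the codes stand for, and the cause of the pairs was not tested.

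For the lists above with a count of 0 in a direction, edgeR's quasi-likelihood test at an unadjusted p of at most 0.05 gave 0 members in that direction, except 1 each for fatty acid oxidation, amino acid breakdown, collagens, neutrophil and biliary markers (higher) and for the translocon and coats list (lower). DESeq2 and edgeR's exact test also gave 0, except that each called 1 member higher in amino acid breakdown, in collagens and in the biliary markers.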

How the data were processed

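Livers of sham-operated and cryoinjured zebrafish were sequenced as bulk RNA from a low-input stranded total RNA kit. The authors deposited a table of raw counts per gene for the 17 samples, made with HISAT2 2.1.0 and featureCounts 1.6.0 after cutadapt 1.16; a table of the authors' normalized counts was not used. The methods and the processing notes name different genome builds (the notes danRer10), so no coordinates are given, and the strand setting of the counting is not given in the sources used here. Reads of genes that overlap on opposite strands may therefore be mixed. Of 8513 entries, 7804 matched a RefSeq symbol or synonym, and 1 symbol occurred in more than 1 entry.

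Columns were mapped to samples by their labels. After edgeR's filter on low counts 8412 entries were fitted over all 17 libraries with TMM factors (edgeR 4.0.16, quasi-likelihood test), the 1 dpci minus sham contrast was taken, and p-values were adjusted by Benjamini-Hochberg over all entries. A gene was called at an adjusted p of at most 0.05. The SE given is the size of the log2 fold change divided by the square root of the test's F statistic. It is therefore derived from the test and is not an error estimated by the model. The same fit with column totals in place of TMM stands beside it. Fold changes are log2, 1 dpci over sham; list medians are less the all-gene median; a floor of 3 counts was used where a group had no more than that. The 74 gene lists and 13 marker lists, and the genes, were chosen with earlier results of these data known. Genes were named by rule. The rule took up to 4 called members of each list with the largest fold change, at a mean of at least 5 CPM. It also required that the 1 dpci and sham libraries did not overlap with TMM, so the lack of overlap in these genes came from the choice. The same conditions chose the 25 largest rises and falls. Each list's most counted member, the 15 largest gains and losses in CPM, and markers were added whatever their overlap. A text gene outside the rule belongs to the 9 gene pairs or is ly6m7 or nr0b2a, added after their values were seen. Further members, called or not, are named without values. Alternatives were other scalings, filters and tests (DESeq2, edgeR's exact test), a replicate block, each library left out, and the 1 dpci library pairs summed. A search of promoter sequences was not run, and a few genes the rule names are not reported here. The script was tested on simulated data. The floor of 3 counts came to a mean of 0.421 CPM at 1 dpci and 0.68 CPM in sham livers.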

Additional observations from a re-analysis of the deposited data

Results flagged for a closer look

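Of 360 groups of 4 or 5 libraries checked for a library far from the rest of its group, 25 held one. For independent, normally distributed values chance alone sets a library apart in about 1 group in 20. That rate need not hold here, since CPM near 0 is skewed and some genes also belong to lists that were checked. In sham replicate 5, psat1 (8.72 CPM), pdia6 (112 CPM), fga (5312 CPM), dio3b (9.93 CPM) and the coagulation share (1.98% of counts) were far above the other sham libraries and ero1b (109.9 CPM) far below, in each case on the side of the 1 dpci libraries. In sham replicate 1, hspa5 (2150.3 CPM), ube2d2l (17.5 CPM), mfap4 (7.19 CPM), nr0b2b (0.184 CPM, 1 count), cdo1 (1675 CPM) and the share of the endoplasmic reticulum list (0.878%) were high and vtnb (592 CPM) low. Sham replicate 2 was high for rln3a (0.909 CPM), sham replicate 3 for stim1a (13.4 CPM) and gbe1b (123 CPM), and sham replicate 4 for tfr1a (73.9 CPM), diablob (8.89 CPM), hbba1 (10678 CPM) and the haemoglobin share (1.01%).

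Among the 1 dpci libraries, replicate 1 was low for bhmt (223 CPM) and high for pgam2 (4.09 CPM), replicate 2 low for fosl1a (8.26 CPM), replicate 3 low for cfhl1 (0.651 CPM), and replicate 4 high for the endoplasmic reticulum share (1.3%). The cause of these values was not tested.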

How the results depend on the processing

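The counts of calls moved most with the scaling and with the libraries. Column totals gave 3154 higher and 473 lower genes (1679 and 363 with the log2 fold change of 1.5), and column totals without the mitochondrially encoded genes 2203 and 594 (1078 and 466), 78.8% of the calls higher. Summing the 1 dpci library pairs gave 267 and 333 (212 and 322), 266 and 333 of them shared with the calls reported. In that setting 40 of the 145 named genes lost their call. Against sham replicate 5 alone, a single library taken to vary like the other groups, there were 10 and 175 (10 and 175), and 29 of the named genes were called. With a library left out, the counts were 474 to 839 higher and 727 to 1222 lower. DESeq2's size factors, the upper quartile, the other filters and tests, and fitting the 1 dpci and sham samples alone kept both counts within 1.5 times. Every list median described kept its side of the all-gene median under every alternative but 1: against sham replicate 5 alone the medians of antioxidant genes (0.071), nuclear respiratory chain subunits (0.097), DNA replication (0.17) and sterol synthesis (0.28) turned, as did the fold change of tcnba (0.63, log2), and that of ly6m7 was 0. Replicate numbers did not pair the samples: the same-number correlations of deviations were 0.136, -0.0417, -0.0036 and 0.108, and the fit with a replicate block called 744 higher and 1056 lower genes. The depth limits genes near the floor, such as nr0b2b and oatx, whose folds are lower bounds.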
